A study of Rattus norvegicus with 12 samples.

Results

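The genes described here are the 8 rows of the deposited gene table, of 40154 in all, that were followed for antigen presentation by major histocompatibility complex (MHC) class II. They were chosen by name and are RT1-Ba, RT1-Bb, RT1-Da, RT1-Db1, RT1-DMa, RT1-DMb, Cd74 and Ciita. RNA was sequenced from the livers of Sprague Dawley rats in 4 groups of 3 libraries each. Rats of the HFD+SAMC group ate a high fat diet and were given S-allylmercaptocysteine (SAMC), an organosulfur compound of aged garlic. Those of the HFD group had the fat diet alone, those of the Control+SAMC group a normal diet plus SAMC, and those of the Control group the normal diet alone. Dose, duration, sex and age are absent from the labels, which also do not say that libraries of a group came from separate animals, so p-values measure the spread between these libraries, which may be technical. Libraries are called by the numbers in their titles, 2 to 4 for HFD and 1 to 3 for each other group.

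MHC class II molecules are pairs of an alpha and a beta chain that hold peptides from engulfed proteins and show them to CD4 T cells. The rat calls its MHC RT1: RT1-Ba and RT1-Bb encode the chains of the B molecule, the counterpart of human HLA-DQ, and RT1-Da and RT1-Db1 those of the D molecule, the counterpart of HLA-DR. Cd74 encodes the invariant chain, which fills the groove until the molecule reaches the endosome, and RT1-DMa and RT1-DMb encode the DM chaperone that exchanges its last fragment for a peptide. Ciita encodes the coactivator that switches the whole group on: it binds no DNA itself but docks on factors held at a set of promoter elements, among them an X box bound by the RFX complex and a Y box bound by NF-Y. In liver, Kupffer cells, dendritic cells and B cells are the usual carriers of class II, and hepatocytes make little of it.

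The promoter elements that Ciita acts through can be read in the rat genome, and the stretches that hold them are shown because Ciita is known to act on class II genes through them. The RefSeq promoter table of the GRCr8 build, 250 bases before each gene's start, held 6 of the 8 genes; RT1-DMb and Ciita are named only. Capitals mark matches to the X box, spelled here as GNNAC directly followed by NNATG, and to the Y box, spelled GATTGG, both searched on both strands, with the shorter core ATTGG (which lies within GATTGG) marked in Cd74, where it reads CCAAT on the printed strand. Each line runs 5′ to 3′ along the gene's own strand.
RT1-Da, chr20:4515323-4515378, plus strand: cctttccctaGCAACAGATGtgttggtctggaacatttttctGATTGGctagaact
RT1-Db1, chr20:4560230-4560284, minus strand: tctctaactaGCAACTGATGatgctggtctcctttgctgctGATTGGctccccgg
RT1-Ba, chr20:4576969-4577026, plus strand: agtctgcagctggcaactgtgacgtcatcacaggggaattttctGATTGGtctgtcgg
RT1-Bb, chr20:4604167-4604221, minus strand: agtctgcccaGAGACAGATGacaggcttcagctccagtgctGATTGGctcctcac
RT1-DMa, chr20:4712387-4712442, minus strand: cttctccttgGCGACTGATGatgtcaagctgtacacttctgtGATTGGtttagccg
Cd74, chr18:56526973-56527029, plus strand: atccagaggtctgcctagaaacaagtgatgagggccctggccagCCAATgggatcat

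RT1-Da, RT1-Db1, RT1-Bb and RT1-DMa carried both elements in 1 orientation. The bases between them numbered 21 in RT1-Bb and RT1-Db1 and 22 in RT1-Da and RT1-DMa. Of 33469 promoters in the table, 8.09% held a match to the X box, 13.3% one to GATTGG, and 11385 one to ATTGG. The X box followed on the same strand by GATTGG after 10 to 30 bases was found in 10 promoters, or 0.0299%. Of these, 6 belonged to class II genes: the 4 just named, RT1-Db2 and RT1-DOb. The other 4 were Ankub1, Paip2b, LOC134479040 and LOC134485911. The letters of both motifs were settled after these promoters had been read, so the share is a description. RT1-Ba and Cd74 had no match to the X box as spelled, which says only that these letters are not in those windows.

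**Figure D1:**
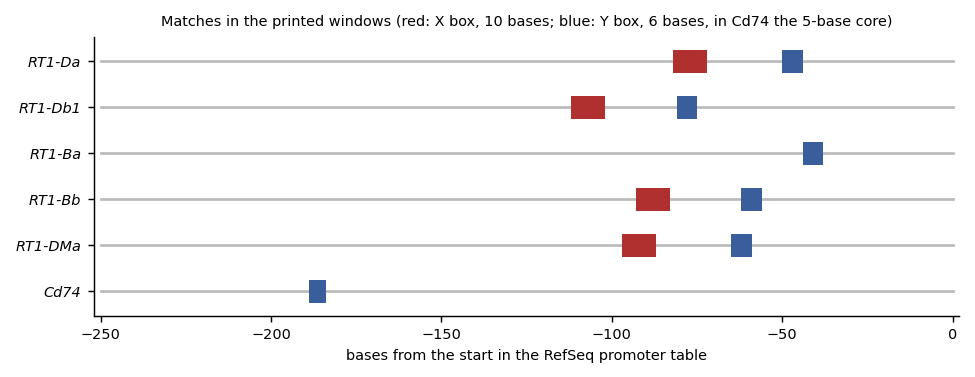
Position of motif matches in the printed windows of 6 genes, in bases from the start used in the RefSeq promoter table (x axis, from 250 bases before it; 1 line per gene). Red blocks are X box matches and blue blocks are Y box matches; RT1-Da, RT1-Db1, RT1-Bb and RT1-DMa hold a red block followed by a blue one, while RT1-Ba and Cd74 hold a blue one alone.

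The deposited table places RT1-Ba at 20:4066133-4070726, RT1-Bb at 20:4043726-4049367, RT1-Da at 20:4127644-4132616 and RT1-Db1 at 20:4087621-4097190. It places RT1-DMa at 20:3935512-3938915, RT1-DMb at 20:3945383-3952838, Cd74 at 18:56071420-56080851 and Ciita at 10:5212621-5260641. These coordinates are in the table's own build, which is not named, and cannot be set beside those of GRCr8. All 8 are protein-coding genes there.

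Libraries held from 45680738 to 61937544 counted reads, and all 8 genes passed the filter on low counts, as 15916 genes did. Albumin, which marks hepatocytes, stood at 67335 to 273606 CPM (counts scaled by TMM to a library of 1e+06) over the 12 libraries. Library 3 of the HFD+SAMC group stood apart in Des, a muscle and stellate cell gene, with 61.0 CPM against 2.29 to 5.54 CPM in the other 11. The fibrinogen gene Fgb was at 3296 to 3928 CPM in HFD 2, HFD 3, Control+SAMC 1 and Control 2, and at 6422 CPM or more in the others. For 1 gene, RGD1562465, the deposited RPKM implied a length of 3377 bases in the 6 HFD+SAMC and Control libraries, where the table lists 4432 bases, while the 6 HFD and Control+SAMC libraries had the listed length. The libraries thus fall into 2 sets whose RPKM were made with another length for that gene. Whether their counts, which the tests use, were made in separate runs is not stated. Every comparison of HFD with Control, of HFD+SAMC with HFD, of Control+SAMC with Control and of HFD+SAMC with Control+SAMC crosses these sets, and set and group cannot be told apart there. The averages over both diets or both SAMC states are balanced between the sets.

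Per length, Cd74 was the most abundant of the 8 genes and Ciita and RT1-DMb the least. On the deposited RPKM scale (reads per length of gene and depth of library) Cd74 averaged 143 ± 68.3 and RT1-Da 55.4 ± 33.4 (SD over 12 libraries). RT1-Ba followed at 17.6 ± 11.8, RT1-Db1 at 15.2 ± 7.39 and RT1-Bb at 11.3 ± 8.90. Their SDs overlapped and include the differences between groups. Within libraries RT1-Bb had 0.359 to 1.18 of the RPKM of RT1-Ba (median 0.624). RT1-DMa at 1.45 ± 1.20, Ciita at 0.577 ± 0.319 and RT1-DMb at 0.423 ± 0.256 RPKM formed the low end, again with overlapping SDs. RT1-DMb had 0.0462 to 1.20 of the RPKM of RT1-DMa in the same library (median 0.342). Within each of the 12 libraries RT1-Da lay below Cd74, at 0.311 to 0.468 of its RPKM.

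The class II group was highest in livers of the HFD group. For RT1-Ba, RT1-Da, RT1-Db1, Cd74 and Ciita, all 3 HFD libraries lay above all 9 other libraries, a pattern that 1.28% of the 15916 tested genes showed. For the same 5 genes the levels in HFD+SAMC livers overlapped with those in Control livers. In bulk liver RNA more cells of a type and more RNA per cell cannot be told apart. None of the differences in class II genes passed an adjusted p of 0.05 in edgeR, so they are given here as values with their errors. The DM genes and RT1-Bb departed from this picture and are described on their own.

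**Figure D2:**
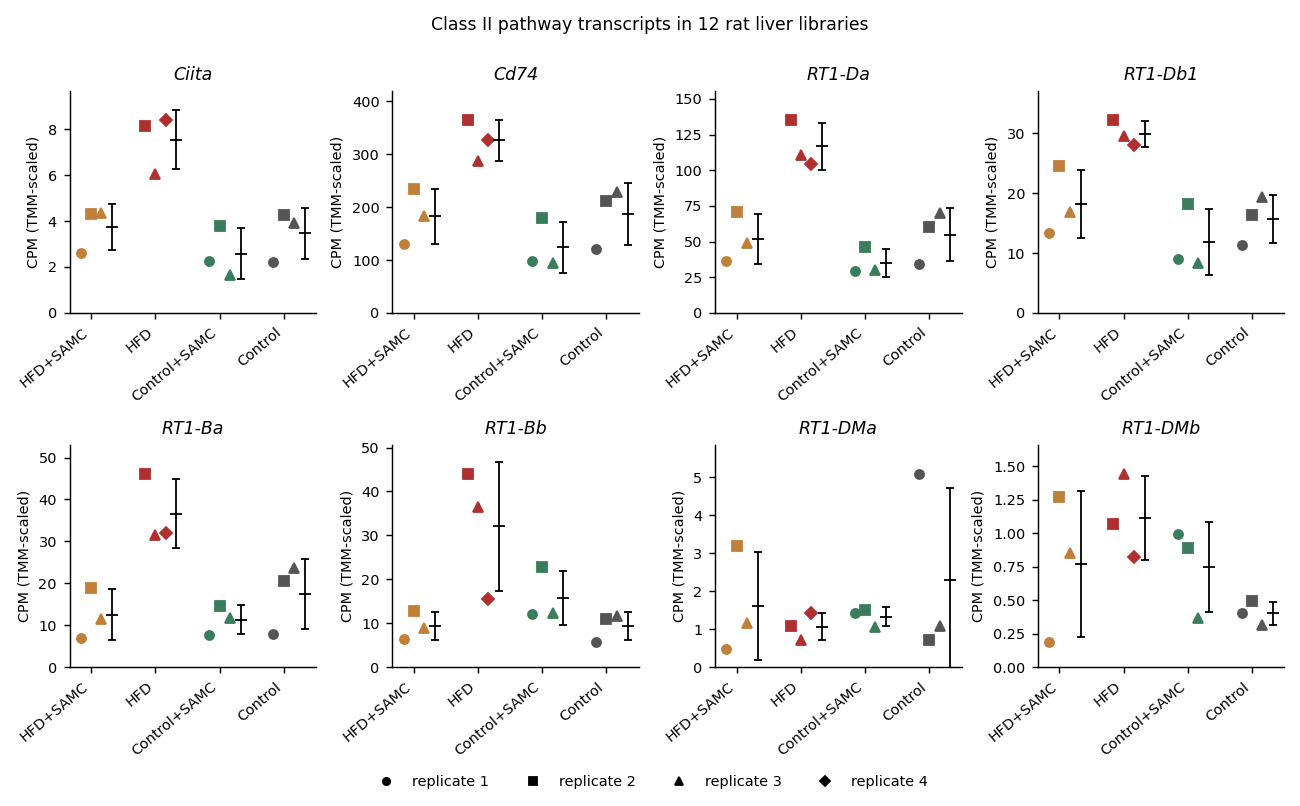
CPM (TMM-scaled, y axis, linear and starting at 0) of the 8 genes in each library by group, with marker shapes for the title's replicate number and a bar for the mean ± SD of 3 libraries. The 3 HFD libraries sit above the other 9 for Ciita, Cd74, RT1-Da, RT1-Db1 and RT1-Ba, from 6.06 to 8.42 CPM against 1.66 to 4.36 CPM for Ciita; for RT1-Bb HFD 4 falls among the other groups, and RT1-DMa and RT1-DMb are scattered.

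Ciita, the coactivator, was low in every liver and highest in the HFD libraries. It was counted at 2.61, 4.29 and 4.36 CPM in HFD+SAMC 1, 2 and 3, 8.14, 6.06 and 8.42 CPM in HFD 2, 3 and 4, 2.28, 3.80 and 1.66 CPM in Control+SAMC 1, 2 and 3, and 2.21, 4.28 and 3.92 CPM in Control 1, 2 and 3. The lowest HFD library stood above the highest of the rest, and the other 3 groups overlapped. Behind these values were 81 to 450 reads per library.

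Cd74 gave 130, 235 and 183 CPM in HFD+SAMC livers, 365, 288 and 327 CPM in HFD livers, 97.7, 180 and 95.3 CPM in Control+SAMC livers and 121, 212 and 228 CPM in Control livers. The HFD libraries were again above the rest, of which HFD+SAMC 2 and Control 3 came nearest. The other 3 groups overlapped with one another.

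Both genes of the D molecule were also highest in the HFD libraries. RT1-Da stood at 36.2, 70.5 and 48.8 CPM in HFD+SAMC, 135, 111 and 105 CPM in HFD, 29.0, 46.0 and 29.8 CPM in Control+SAMC, and 34.2, 60.3 and 70.1 CPM in Control. RT1-Db1, its beta chain, stood at 13.4, 24.5 and 16.9 CPM in HFD+SAMC, 32.3, 29.6 and 28.0 CPM in HFD, 8.97, 18.2 and 8.32 CPM in Control+SAMC, and 11.4, 16.4 and 19.3 CPM in Control. For RT1-Da the HFD libraries were all above 100 CPM and no other library reached 71; for RT1-Db1 the margin between HFD 4 and HFD+SAMC 2 was small.

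RT1-Ba, the alpha chain of the B molecule, gave 6.84, 18.9 and 11.5 CPM in HFD+SAMC, 46.1, 31.5 and 32.1 CPM in HFD, 7.60, 14.5 and 11.7 CPM in Control+SAMC, and 7.85, 20.6 and 23.7 CPM in Control. It had the same order of groups as Cd74, with a wider range, 6.75-fold between its lowest and highest library against 3.84-fold for Cd74. RT1-Bb, the beta chain, gave 6.31, 12.7 and 8.83 CPM in HFD+SAMC, 44.0, 36.5 and 15.6 CPM in HFD, 12.1, 22.9 and 12.3 CPM in Control+SAMC, and 5.75, 11.01 and 11.5 CPM in Control. Here HFD 4 lay well below HFD 2 and 3, inside the Control+SAMC range, and all Control+SAMC libraries lay above all Control libraries.

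The DM chaperone was scarce and did not share the order of the other genes. RT1-DMa had 30, 204 and 75 reads in HFD+SAMC, 58, 46 and 76 reads in HFD, 67, 70 and 51 reads in Control+SAMC, and 267, 29 and 48 reads in Control. Only HFD+SAMC 2 and Control 1 were high, and they were of different groups. RT1-DMb had 12, 81 and 55 reads in HFD+SAMC, 58, 94 and 44 reads in HFD, 47, 41 and 18 reads in Control+SAMC, and 21, 20 and 14 reads in Control; on the CPM scale the HFD libraries lay above the Control ones, and HFD+SAMC spanned nearly the whole range.

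HFD against Control asked what the diet did in rats without SAMC. Class II transcripts were higher in HFD livers for 7 of the 8 genes, by about 1 on the log2 scale for most, and RT1-DMa was the exception. Ciita averaged 7.54 ± 1.29 CPM in HFD and 3.47 ± 1.11 CPM in Control livers (SD, n = 3 each), a log2 fold change of 1.12 ± 0.34 (SE). Cd74 averaged 326.5 ± 38.9 CPM in HFD and 187 ± 57.8 CPM in Control livers, a log2 fold change of 0.80 ± 0.31. RT1-Da at 1.09 ± 0.30, RT1-Db1 at 0.93 ± 0.31 and RT1-Ba at 1.07 ± 0.44 showed log2 fold changes of the same order, and RT1-Bb at 1.76 ± 0.44 had the highest. RT1-DMb was higher in HFD by 1.47 ± 0.60 and RT1-DMa had −1.11 ± 0.76, a value that became 0.25 without Control 1.

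In edgeR (quasi-likelihood, Benjamini-Hochberg adjusted) over 15916 genes, 0 of the 8 passed an adjusted p of 0.05 in this comparison, where 0.145% of all genes did. Adjusted p ran from 0.194 for RT1-Bb to 0.643 for RT1-DMa. At an unadjusted p under 0.05, 7 of the 8 were higher in HFD, where 5.9% of all genes were. The libraries of the groups did not overlap for the same 7, all higher in HFD, as for 8.27% of all genes. DESeq2's Wald test, run as an alternative, called RT1-Bb and RT1-Da, among 315 of the 15916 genes. Without Control 1, the lowest Control library for the 6 genes other than the DM pair, the 7 became 3; without HFD 2, HFD 3 or Control 2, which were low in Fgb, it became 5, 6 or 7. Summed dendritic cell markers also lay higher in HFD (23.0 to 27.7 CPM) than in Control (13.4 to 19.7 CPM), and their part in these values was not tested.

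HFD+SAMC against HFD asked what SAMC did under the diet. Ciita, Cd74 and all 4 genes of the B and D molecules were lower in HFD+SAMC livers, and their libraries did not overlap with those of HFD. Ciita averaged 3.75 ± 0.99 CPM in HFD+SAMC and 7.54 ± 1.29 CPM in HFD livers (SD, n = 3 each), a log2 fold change of −1.005 ± 0.34. Cd74 averaged 183 ± 52.4 CPM in HFD+SAMC and 326.5 ± 38.9 CPM in HFD livers, or −0.84 ± 0.31. RT1-Da had −1.17 ± 0.30, RT1-Db1 −0.71 ± 0.31, RT1-Ba −1.56 ± 0.45 and RT1-Bb −1.79 ± 0.44 on the log2 scale. The DM genes had 0.59 ± 0.76 for RT1-DMa, where HFD+SAMC 2 was high and the value without it was −0.39, and −0.53 ± 0.57 for RT1-DMb.

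By edgeR (quasi-likelihood, Benjamini-Hochberg adjusted), 0 of the 8 passed, where 0.0503% of all genes did, and adjusted p ran from 0.244 for RT1-Bb to 0.826 for RT1-DMa. At an unadjusted p under 0.05, 6 of the 8 were lower, against 5.34% of all genes, and for the same 6 the groups did not overlap, against 9.41% of all genes. DESeq2 called RT1-Ba, RT1-Bb and RT1-Da, among 249 of the 15916 genes. Without HFD+SAMC 1, the lowest of its group for these 6 genes, the 6 became 3, and without HFD+SAMC 3, the library high in Des, they became 5. This comparison shares its HFD libraries with the one before, so a library high in HFD moves both.

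**Figure D3:**
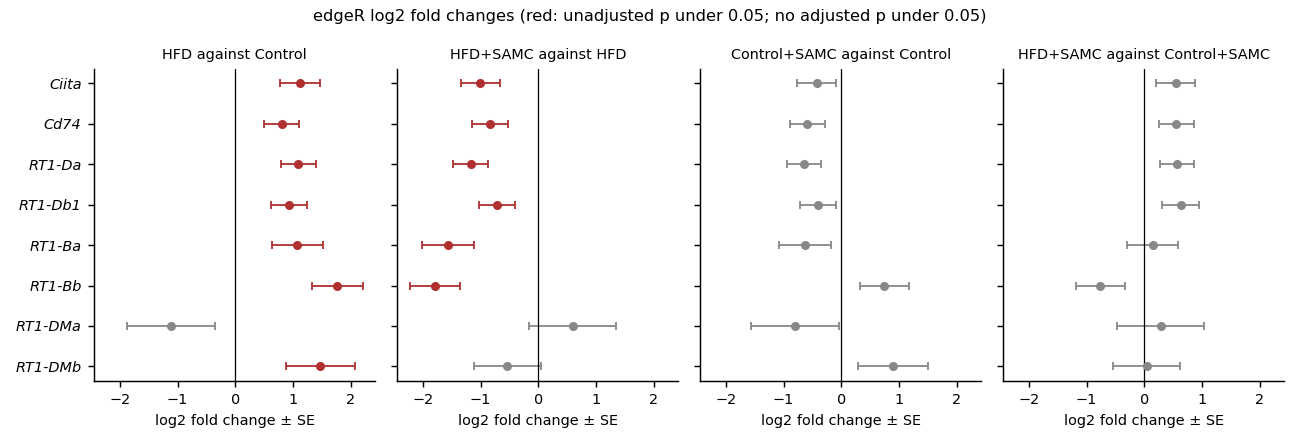
Log2 fold changes from edgeR (x axis) with SE bars for the 8 genes (rows) in 4 comparisons, red where the unadjusted p was under 0.05. No adjusted p was under 0.05; 7 points are red and right of 0 for HFD against Control, 6 are red and left of 0 for HFD+SAMC against HFD, and none is red in the other panels.

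On the normal diet, Ciita, Cd74, RT1-Da, RT1-Db1 and RT1-Ba had lower means with SAMC, with libraries that overlapped. In Control+SAMC against Control the log2 fold changes were −0.43 ± 0.34 for Ciita, −0.59 ± 0.30 for Cd74, −0.65 ± 0.30 for RT1-Da, −0.41 ± 0.31 for RT1-Db1 and −0.63 ± 0.44 for RT1-Ba. RT1-Bb went the other way at 0.74 ± 0.43, and it was the 1 gene of the 8 whose libraries did not overlap, as was so, higher, for 7.03% of all genes. The DM genes had −0.80 ± 0.76 for RT1-DMa and 0.90 ± 0.60 for RT1-DMb. By edgeR (quasi-likelihood, Benjamini-Hochberg adjusted) 0 of 8 passed (adjusted p from 0.510; 0.119% of all genes passed), 0 were under an unadjusted p of 0.05 (4.61% of all genes were, lower, and 5.18%, higher), and DESeq2 called 0. Leaving out Control+SAMC 2 or Control 1 put 4 or 3 of them under an unadjusted p of 0.05, all lower in Control+SAMC.

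Among rats given SAMC, the levels on the 2 diets overlapped. This held for all 8 genes in HFD+SAMC against Control+SAMC, where 9.27% of all genes were higher and 8.54% lower without overlap. Log2 fold changes were 0.54 ± 0.34 for Ciita, 0.55 ± 0.30 for Cd74, 0.57 ± 0.30 for RT1-Da and 0.63 ± 0.31 for RT1-Db1. RT1-Ba had 0.14 ± 0.44 and RT1-Bb −0.76 ± 0.43. The DM pair had 0.28 ± 0.76 for RT1-DMa and 0.04 ± 0.58 for RT1-DMb. By edgeR (quasi-likelihood, Benjamini-Hochberg adjusted) 0 of 8 passed (adjusted p from 0.509; 0.0628% of all genes passed), and 0 were under an unadjusted p of 0.05 (5.62% of all genes were, higher, and 5.26%, lower). DESeq2 called 0. Without Control+SAMC 2 or HFD+SAMC 1, 4 or 3 of the 8 were under an unadjusted p of 0.05, all higher in HFD+SAMC.

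The averaged contrasts use all 12 libraries and are balanced between the RPKM sets. Averaged over SAMC, the HFD effect on the log2 scale was 0.83 ± 0.24 for Ciita, 0.68 ± 0.22 for Cd74, 0.83 ± 0.21 for RT1-Da, 0.78 ± 0.22 for RT1-Db1 and 0.61 ± 0.31 for RT1-Ba. It was 0.50 ± 0.30 for RT1-Bb, 0.75 ± 0.42 for RT1-DMb and −0.42 ± 0.54 for RT1-DMa. In edgeR with Benjamini-Hochberg adjustment the lowest adjusted p was 0.125, for RT1-Da, so 0 of 8 passed (0.421% of all genes did). Ciita, Cd74, RT1-Da and RT1-Db1 had an unadjusted p under 0.05, 4 of 8 against 7.3% of all genes. DESeq2 called Ciita, RT1-Da and RT1-Db1, among 538 of the 15916 genes.

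Averaged over diet, the SAMC effect on the log2 scale was −0.72 ± 0.24 for Ciita, −0.71 ± 0.22 for Cd74, −0.91 ± 0.21 for RT1-Da, −0.56 ± 0.22 for RT1-Db1 and −1.09 ± 0.32 for RT1-Ba. RT1-Bb had −0.52 ± 0.30, RT1-DMa −0.10 ± 0.54 and RT1-DMb 0.18 ± 0.41. The lowest adjusted p in edgeR's test was 0.112, for RT1-Da, so 0 of 8 passed after Benjamini-Hochberg adjustment (0.22% of all genes did). An unadjusted p under 0.05 was reached by 5 of 8, all lower, against 6.11% of all genes. DESeq2 called Cd74, RT1-Ba and RT1-Da, among 436 of the 15916 genes.

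Whether SAMC acted differently on the diets was tested as an interaction. This is the same combination of groups as the difference between the RPKM sets and cannot be told apart from it. RT1-Bb had −2.53 ± 0.61 on the log2 scale. The others had −0.58 ± 0.48 for Ciita, −0.25 ± 0.43 for Cd74, −0.52 ± 0.42 for RT1-Da, −0.31 ± 0.44 for RT1-Db1, −0.93 ± 0.63 for RT1-Ba, 1.39 ± 1.07 for RT1-DMa and −1.43 ± 0.83 for RT1-DMb. In edgeR with Benjamini-Hochberg adjustment 0 of 8 passed (0.145% of all genes did). RT1-Bb alone was under an unadjusted 0.05, as 4.1% of all genes were with a value below 0. Its adjusted p was 0.272 in edgeR. DESeq2 called RT1-Bb alone of the 8, among 128 of the 15916 genes.

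How tightly the genes keep step can be read from reads of each per 100 reads of Cd74 in the same library, which needs no scaling between libraries. Ciita stayed between 1.72 and 2.58 reads per 100 over all 12 libraries, although its own CPM spanned 5.08-fold. RT1-Db1 stayed between 7.72 and 10.4. RT1-Da lay at 32.0 to 38.5 per 100 in the HFD libraries and at 25.5 to 31.3 in the other 9. The margin between HFD 4 and Control+SAMC 3 was narrow, and how often other genes show such a pattern was not determined. RT1-Ba was looser, at 5.27 to 12.6 per 100.

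RT1-Bb fell into 2 levels against Cd74. In 7 libraries, which were all 3 of HFD+SAMC, HFD 4 and all 3 of Control, it had 4.75 to 5.43 reads per 100 of Cd74. In the other 5, which were HFD 2, HFD 3 and all 3 of Control+SAMC, it had 12.1 to 13.0. The gap between the levels was 2.22-fold, while the next widest step between neighbouring libraries was 1.05-fold. All 5 upper libraries belong to the HFD and Control+SAMC set, and HFD 4 is the 1 library of that set on the lower level. RT1-Ba, its alpha chain, showed no such gap. RT1 class II genes are polymorphic and resemble one another, the kit named in the labels is not stated to mark strand, and reads of near copies can be split or lost when counted per gene, so the level of any RT1 gene is uncertain; the part of this in the split was not tested.

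**Figure D4:**
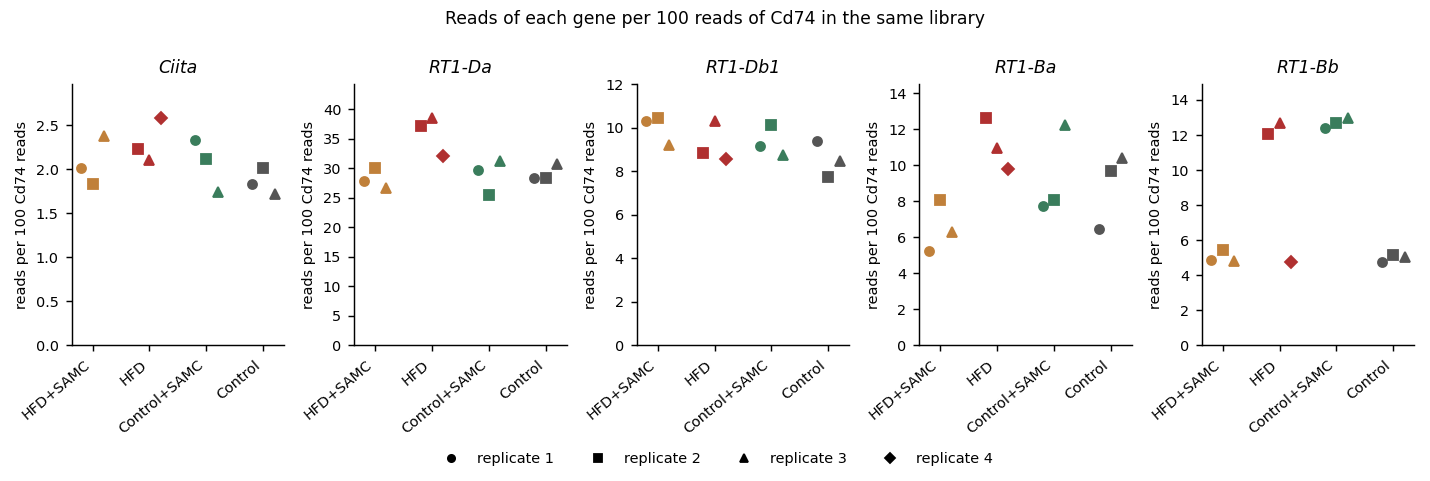
Reads of Ciita, RT1-Da, RT1-Db1, RT1-Ba and RT1-Bb per 100 reads of Cd74 in each library (y axis, from 0) by group, with marker shapes for the title's replicate number. RT1-Bb sits at 4.75 to 5.43 in 7 libraries and at 12.1 to 13.0 in 5, HFD 4 being apart from HFD 2 and 3; Ciita stays within 1.72 to 2.58 in all.

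Across the 12 libraries, log2 CPM of Cd74 ran closest to RT1-Da, RT1-Db1 and Ciita, while Myo1g, Ctss and Plau came before RT1-Ba. Pearson's r with Cd74 was 0.98 for RT1-Da, 0.98 for RT1-Db1, 0.97 for Ciita and 0.92 for RT1-Ba, but 0.64 for RT1-Bb, 0.49 for RT1-DMb and −0.12 for RT1-DMa. These are descriptions over libraries that share the HFD group at the top; over the 9 libraries without HFD, r was 0.98 for RT1-Da, 0.96 for RT1-Db1, 0.95 for Ciita, 0.82 for RT1-Ba and 0.27 for RT1-Bb. Of 10294 other genes, the most like Cd74 were Myo1g, a myosin of blood cells (r = 0.946), and Ctss (r = 0.938), the protease cathepsin S that trims the invariant chain. Over the 9 libraries without HFD, Tnfaip8l2 (r = 0.948) stood just above Ciita. After Ctss came, over the 12, Plau, Tnfaip8l2, Il16, Nfam1, Pgghg, Tyrobp, Tnfaip8 and Il2rg, down to r = 0.894. Those most like Ciita were Myo1g (r = 0.934), Ctss (r = 0.928), Plau, Sipa1 and Il16 (r = 0.908). Spearman's rho with Cd74 was 0.895 for Myo1g and 0.909 for Ctss.

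The factors at class II promoters, such as Rfx5, Rfxank and the NF-Y subunits, had a median log2 fold change of −0.18 over 11 tested in HFD against Control, where the median over the 8 class II genes was 1.08 and over all tested genes −0.0047. None of the 11 was called, 2 were lower at an unadjusted p under 0.05, where 4.76% of all genes were (Zxdc at −0.31 ± 0.11 and the acetyltransferase Crebbp at −0.41 ± 0.18), and Rfxap stayed at or below 0.09 CPM. The interferon gamma axis, the usual inducer of Ciita, had a median of 0.09 over 11 tested, with the transcription factor Irf8 at 0.67 ± 0.28 and Usf1 at −0.43 ± 0.14, and Ifng itself was at or below 0.11 CPM in every library. In HFD+SAMC against HFD these medians were 0.07 and −0.06, where the class II genes had −0.92, and 0 genes of either list were called by edgeR in either comparison.

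The antigen processing enzymes had a median near 0. Of 15 tested in HFD against Control, 0 were called, 3 were higher and 1 lower at an unadjusted p under 0.05, where 5.9% of all genes were higher and 4.76% lower, and the median log2 fold change was −0.04. Over the 15, 6 had a value above 0 and 9 below. The higher ones at that p were Ctss at 0.48 ± 0.17, the lysosomal thiol reductase Ifi30 at 0.28 ± 0.09 and March1 at 0.89 ± 0.39. March1 is a ubiquitin ligase that takes class II off the surface. The protease Ctsf was at −0.46 ± 0.15. In HFD+SAMC against HFD the median was −0.03, with Ctss at −0.34 ± 0.17, March1 at −0.63 ± 0.38 and the protease Ctse at −0.82 ± 0.38; 0 of 15 were called and 1, Ctse, was lower at an unadjusted p under 0.05, where 5.34% of all genes were. Ctss stood at 50.8 to 52.9 CPM in HFD livers and at 29.4 to 44.7 CPM in Control livers.

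Most costimulation and CD4 genes, and the remaining class II genes tested, had the signs of the class II group without passing the test. The list joins genes of the presenting cell, such as Cd40, with Cd4, the coreceptor of helper T cells that rat macrophages also carry. Of 7 tested, all 7 were higher in HFD than in Control (median 0.39), where 49.3% of all genes had a value above 0. Of these 0 were called and 2 were at an unadjusted p under 0.05 (5.9% of all genes, higher), with Cd4 at 0.45 ± 0.16 and Cd40 at 0.89 ± 0.38. In HFD+SAMC against HFD 6 of the 7 were lower (median −0.14), 0 at an unadjusted p under 0.05. RT1-DOa and RT1-DOb, which encode a molecule that restrains DM in human and mouse, were counted at 7 to 48 reads per library; they had 0.49 ± 0.58 and 0.35 ± 0.47 in HFD against Control and −1.08 ± 0.58 and −0.93 ± 0.47 in HFD+SAMC against HFD, none called.

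MHC class I, which shows peptides from inside the cell to CD8 T cells, had medians near 0. Over 23 genes tested the median log2 fold change was −0.05 in HFD against Control and −0.05 in HFD+SAMC against HFD, with 0 called in both. In HFD+SAMC against HFD, 9 of the 23 were higher and 14 lower, and 2 were higher at an unadjusted p under 0.05, where 5.28% of all genes were. These were the class I chain genes RT1-A2 at 1.22 ± 0.46 and RT1-CE4 at 1.23 ± 0.38; RT1-CE4 overlapped between HFD+SAMC (5.18 to 16.9 CPM) and HFD (3.05 to 5.61 CPM). RT1-N3 was at 1.56 to 2.91 CPM in HFD+SAMC 1, HFD+SAMC 3 and Control 1. The lowest HFD library was close to these at 3.75 CPM, while HFD+SAMC 2 had 10.6 CPM. Low values were thus not confined to the HFD+SAMC and Control groups, and HFD+SAMC overlapped with HFD (3.75 to 21.3 CPM). RT1-N3 was singled out after its values were seen.

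**Figure D5:**
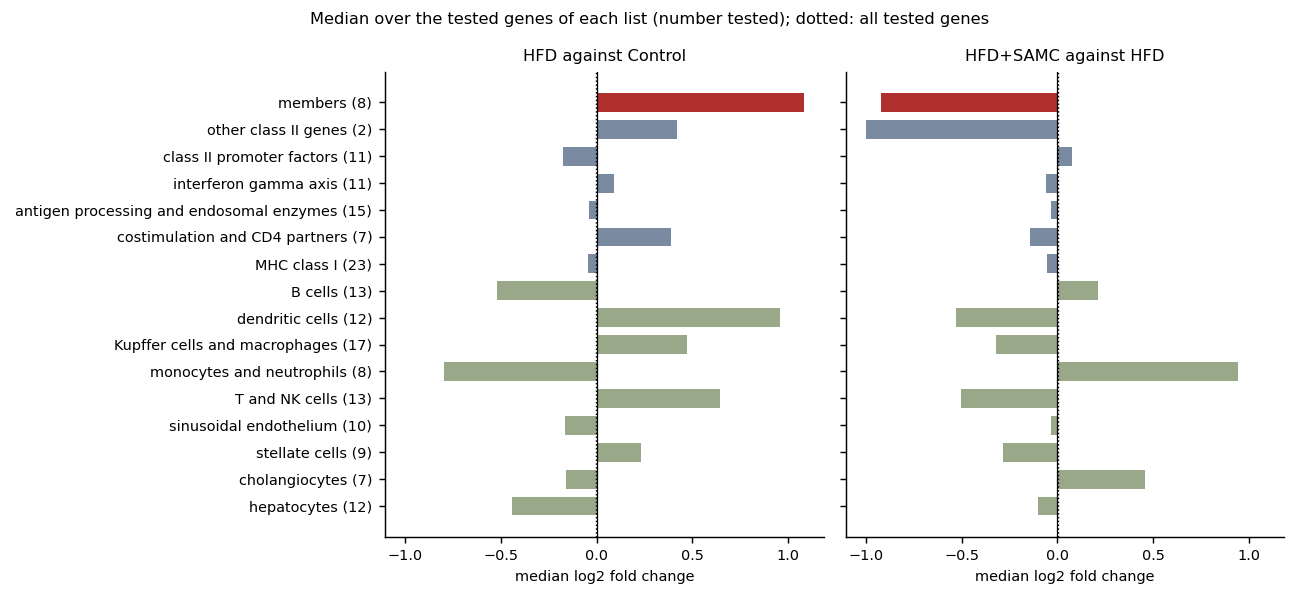
Median log2 fold change (x axis) over the tested genes of each list (rows, number tested in parentheses) for HFD against Control and for HFD+SAMC against HFD, with a dotted line for all 15916 genes. The 8 class II genes (red) stand at 1.08 and −0.92; of the lists with over 10 genes, dendritic cell markers come nearest, at 0.96 and −0.53, while promoter factors, the interferon gamma axis and MHC class I lie within 0.2 of 0.

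Most markers of dendritic cells, of macrophages and of T and NK cells were, like the class II genes, higher in HFD livers than in Control livers and lower in HFD+SAMC livers than in HFD livers. Summed dendritic cell markers (12 genes) ran from 16.2 to 20.2 CPM in HFD+SAMC, 23.0 to 27.7 CPM in HFD, 13.5 to 17.4 CPM in Control+SAMC and 13.4 to 19.7 CPM in Control, so HFD lay above the other 3 groups. Of these 12, 11 were higher in HFD than in Control and 11 lower in HFD+SAMC than in HFD, with 0 called in either. The integrin gene Itgax went its own way. It had 1.85 to 3.43 CPM in HFD+SAMC, 2.15 to 2.42 CPM in HFD, 0.82 to 1.12 CPM in Control+SAMC and 0.51 to 1.26 CPM in Control. Averaged over SAMC it rose with the diet by 1.39 ± 0.24 on the log2 scale (adjusted p = 0.0303, edgeR, Benjamini-Hochberg), and in HFD+SAMC against HFD it had 0.15 ± 0.33, where class II was lower.

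Kupffer cell and macrophage markers (17 genes) summed to 986 to 1164 CPM in HFD+SAMC, 1151 to 1436 CPM in HFD, 857 to 1117 CPM in Control+SAMC and 723 to 1198 CPM in Control. In HFD against Control 16 of 17 were higher (median 0.47), where 49.3% of all genes were above 0, and 9 had an unadjusted p under 0.05, where 5.9% of all genes were higher at that p. Among the 9 were Aif1 at 1.24 ± 0.31, the adaptor Tyrobp at 0.62 ± 0.17, the Fc receptor chain Fcer1g at 0.72 ± 0.21 and the lysozyme gene Lyz2 at 1.28 ± 0.39. In HFD+SAMC against HFD 16 of 17 were lower (median −0.32), with Aif1 at −1.46 ± 0.31, Adgre1 at −1.14 ± 0.38 and Fcer1g at −0.60 ± 0.21. edgeR called 0 of the 17 in either. Clec4f, the lectin of resident Kupffer cells, overlapped between HFD (244 to 323 CPM) and Control (169 to 267 CPM).

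B cell markers (14 genes) summed to 14.5 to 17.2 CPM in HFD+SAMC and 14.3 to 25.5 CPM in HFD. They summed to 10.7 to 11.7 CPM in Control+SAMC and 19.9 to 21.4 CPM in Control. The median sum was higher in HFD (25.0 CPM) than in Control (20.8 CPM). Over the 13 tested genes, though, the median log2 fold change in HFD against Control was −0.52, with 5 higher and 8 lower. Of the 14, 7 stayed under 1 CPM in every library and none was at 0 in all. Markers of T and NK cells (15 genes) summed to 13.1 to 14.6 CPM in HFD+SAMC, 14.5 to 23.7 CPM in HFD, 7.45 to 14.0 CPM in Control+SAMC and 9.37 to 18.1 CPM in Control. Of the 13 tested, 10 were higher in HFD than in Control (median 0.65) and 10 lower in HFD+SAMC than in HFD (median −0.50), with 0 called in either, and 9 of the 15 stayed under 1 CPM in every library. Hepatocyte markers ran the other way in HFD against Control, with 11 of 12 lower, a median of −0.44 and sums of 130946 to 174523 CPM in HFD and 162730 to 370180 CPM in Control. Medians in HFD against Control were −0.80 for monocytes and neutrophils, −0.17 for sinusoidal endothelium, 0.23 for stellate cells and −0.16 for cholangiocytes. In HFD+SAMC against HFD the medians were 0.21 for B cells, 0.94 for monocytes and neutrophils, −0.03 for sinusoidal endothelium, −0.29 for stellate cells, 0.46 for cholangiocytes and −0.10 for hepatocytes. The part that any of these cell types has in the class II values was not tested.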

How the data were processed

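Reads were trimmed with Trimmomatic 0.36 and checked with FastQC, per the submitters' processing notes. Alignment was with HISAT2, per the labels' protocols, and the authors deposited HTSeq's count of reads for every gene and library. No source used here gives the genome build, annotation release or strand setting. The same deposited table gives RPKM, which was used only to compare levels between genes. The authors' own tests are not analysed here.

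Counts of all 12 libraries entered 1 edgeR 4.0.16 quasi-likelihood fit (R 4.3.3, TMM scaling, robust, 8 residual degrees of freedom). The filterByExpr function kept 15916 genes with 99.96% of counts; 14180 of 40154 genes had no count. Tests were two-sided, adjusted by Benjamini-Hochberg over all genes within each of 7 contrasts, threshold 0.05. CPM used TMM-scaled library sizes (1e+06 counts) and log2 CPM a prior count of 2. Libraries of 1 group differed from each other by a chi-square of 87.9 to 645 per degree of freedom, so none was counted as a repeat. The script was tested on simulated counts. Alternatives were DESeq2 1.42.0 (Wald test), its size factors in edgeR, no filter, only the 2 groups compared, a replicate block and leaving out each of 12 libraries.

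The genes, lists, contrasts and alternatives were chosen with earlier results of these data known. All 8 genes are named; of each list the text names up to 4 genes per contrast, those called and then those of lowest p, and the genes most like Cd74 (10) and Ciita (5) by Pearson's r among genes whose mean log2 CPM reached 1. Alb, Clec4f, Des, Fgb, Rfx5, Rfxap, Ifng and RT1-N3 values fall outside that rule.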

Additional observations from a re-analysis of the deposited data

Results flagged for a closer look

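RT1-Bb, the beta chain of the B molecule, was flagged because its libraries did not overlap under SAMC on either of the 2 diets, in opposite directions. All 3 HFD+SAMC libraries (6.31 to 12.7 CPM) lay below all 3 HFD libraries (15.6 to 44.0 CPM), as for 9.41% of all genes. All 3 Control+SAMC libraries (12.1 to 22.9 CPM) lay above all 3 Control libraries (5.75 to 11.5 CPM), as for 7.03% of all genes. Per 100 reads of Cd74, HFD 4 at 4.77 lay near HFD+SAMC (4.82 to 5.43), unlike HFD 2 and 3. The interaction was −2.53 ± 0.61 (SE) on the log2 scale, with an adjusted p of 0.272 in edgeR (quasi-likelihood, Benjamini-Hochberg), so it did not pass. Over the alternatives its adjusted p ran from 0.00285 to 0.577. The interaction is also the difference between the RPKM sets, and group and set cannot be told apart.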

How the results depend on the processing

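Of the 8 genes, edgeR called none in any contrast under DESeq2's size factors, without the filter, with only the 2 groups compared or with any 1 library left out. DESeq2's Wald test called 2 in HFD against Control, 3 in HFD+SAMC against HFD, 3 in each averaged contrast and 1 in the interaction. Over all 15916 genes it called 315, 249, 538 (averaged diet), 436 (averaged SAMC) and 128 there, where edgeR called 23, 8, 67, 35 and 23. The deviations of same-numbered libraries from their group means correlated with r from −0.22 to 0.25, and those of differently numbered libraries from −0.35 to 0.31. With 3 libraries per group this cannot decide whether equal numbers mark a pairing. With the replicate block, in which HFD 4 is alone under its number and so is set aside, RT1-Bb was called in HFD against Control (1.89; adjusted p = 0.0175, edgeR, range over alternatives 0.00268 to 0.523), in HFD+SAMC against HFD (−1.92; adjusted p = 0.0303, range 0.00275 to 0.494) and in the interaction (adjusted p = 0.0465), 1 gene each, and no other call of these genes changed. The block also put 1 gene higher and 3 lower under an unadjusted p of 0.05 in Control+SAMC against Control (DESeq2 put 1 lower), 3 higher and 1 lower in HFD+SAMC against Control+SAMC, and 2 lower in the interaction.

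Leaving out 1 library at a time, genes under an unadjusted p of 0.05 numbered 3 to 7 higher in HFD against Control, 3 to 6 lower in HFD+SAMC against HFD, 0 to 4 lower in Control+SAMC against Control, 0 to 4 higher in HFD+SAMC against Control+SAMC, 4 to 6 higher for the averaged diet, 4 to 6 lower for averaged SAMC and 1 to 3 lower in the interaction (3 without HFD+SAMC 2). Over all genes, edgeR's calls in the order of the 7 contrasts just given numbered 23, 8, 19, 10, 67, 35 and 23. DESeq2 gave 315, 249, 219, 272, 538, 436 and 128. Leaving out 1 library gave 4 to 53, 1 to 27, 3 to 23, 1 to 45, 30 to 130, 13 to 68 and 7 to 19. With only the 2 groups compared the first 4 were 4, 23, 5 and 44. Without the filter HFD+SAMC against HFD had 19, HFD+SAMC against Control+SAMC 21 and averaged SAMC 67. The block gave 6 for Control+SAMC against Control, 2 for HFD+SAMC against Control+SAMC, 10 for averaged SAMC and 9 for the interaction.

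Signs turned only for small or scattered values. For RT1-DMa, leaving out 1 library gave −1.54 to 0.25 in HFD against Control and −1.22 to 0.56 in Control+SAMC against Control, both turned by Control 1. It gave −0.39 to 1.03 in HFD+SAMC against HFD and −0.70 to 0.72 in HFD+SAMC against Control+SAMC, both turned by HFD+SAMC 2. For the averaged diet it gave −0.91 to 0.26 (turned by Control 1), and for averaged SAMC −0.59 to 0.57 (0.12 without HFD+SAMC 1, 0.029 without HFD 4, 0.026 with the block). RT1-DMb in HFD+SAMC against Control+SAMC gave −0.53 to 0.50 (−0.039 without HFD+SAMC 3, −0.29 without Control+SAMC 3, −0.069 with the block) and for averaged SAMC −0.10 to 0.41, its lowest values being without HFD+SAMC 2. RT1-Ba in HFD+SAMC against Control+SAMC gave −0.29 (without HFD+SAMC 2) to 0.44, and −0.072 without Control+SAMC 1. In the interaction RT1-Db1 gave −0.58 to 0.15 and Cd74 −0.47 to 0.12, both turned by Control+SAMC 2. The cause was not tested. Depth limits the DM genes most, since RT1-DMb rests on 12 to 94 reads per library.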
